A study of Macaca mulatta with 28 samples.

Results

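The libraries described here are bulk RNA-seq profiles of the ventral tegmental area (VTA) of the rhesus macaque that were sorted by their own level of SLC6A3, the gene of the dopamine transporter (DAT). SLC6A3 was expressed as CPM, its count divided by the total count of the library and scaled to a common total, all 28 libraries were ranked, and the 9 highest (DAT-rich) were set against the 9 lowest (DAT-poor), so that 18 of the 28 animals entered the comparison. The remaining 10 animals, which lay between these classes, were kept for a separate look at the same genes. The classes were thus selected on a measured value and are not a treatment, and SLC6A3 itself was left out of every tally.

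All animals were adult wild-type male macaques from 2 cohorts, each with one VTA punch. The 17 drinkers self-administered alcohol after a schedule-induced polydipsia induction, with long periods of open access broken by forced abstinence, and were necropsied at the end of a final month of abstinence. The 11 controls were calorically yoked or housing controls, and the labels used here do not say which animal was which. The labels sort drinkers by phenotype (Low, Binge, Heavy or Very Heavy). A punch of bulk tissue holds neurons and glia together, so fewer dopamine neurons in the punch and less RNA per neuron cannot be told apart in any result that follows.

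Dopamine neurons make dopamine from tyrosine with tyrosine hydroxylase (TH) and aromatic amino acid decarboxylase (DDC), load it into vesicles with the vesicular monoamine transporter (SLC18A2), and take it back up with DAT. Their identity in the ventral midbrain is set and maintained by transcription factors that include EN1, NR4A2, PITX3 and LMX1B. They are neighboured by GABA and glutamate neurons and by a large glial population, and midbrain tissue outside the dopamine cell groups holds little DAT mRNA.

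These genes sit at separate places in the genome. In the Mmul_10 assembly, RefSeq places SLC6A3 on chromosome 6 from 1339149 to 1388879 (minus strand), TH on chromosome 14 from 2224320 to 2232217 (minus strand), SLC18A2 on chromosome 9 from 117717367 to 117756390 (plus strand) and DDC on chromosome 3 from 64711636 to 64817930 (plus strand). The 250 bases that precede the outermost annotated RefSeq start of TH, SLC18A2 and DDC are given below because these 3 genes moved together across the animals. They are chr14:2232218-2232467, chr9:117717117-117717366 and chr3:64711386-64711635, read 5′ to 3′ on the strand of the gene, in lower case, with capitals for a match to one of 4 motifs searched on both strands.
TH: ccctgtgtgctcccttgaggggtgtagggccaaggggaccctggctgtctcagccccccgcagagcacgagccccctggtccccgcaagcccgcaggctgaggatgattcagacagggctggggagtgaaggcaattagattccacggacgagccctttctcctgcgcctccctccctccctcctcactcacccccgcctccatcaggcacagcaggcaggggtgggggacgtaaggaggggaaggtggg
SLC18A2: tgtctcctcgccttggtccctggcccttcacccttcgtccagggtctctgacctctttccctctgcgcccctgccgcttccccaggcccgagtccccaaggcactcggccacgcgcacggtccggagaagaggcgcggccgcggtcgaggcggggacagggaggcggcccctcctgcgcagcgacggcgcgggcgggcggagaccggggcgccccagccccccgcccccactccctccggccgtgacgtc
DDC: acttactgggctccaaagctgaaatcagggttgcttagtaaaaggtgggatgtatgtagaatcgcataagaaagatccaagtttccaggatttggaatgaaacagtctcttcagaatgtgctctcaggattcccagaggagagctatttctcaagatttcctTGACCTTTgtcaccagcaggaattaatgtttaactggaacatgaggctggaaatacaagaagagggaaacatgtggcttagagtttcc
The motifs were the NBRE octamer AAAGGTCA to which NR4A-family receptors bind, the cyclic AMP response element TGACGTCA, the bicoid-type site TAATCC bound by PITX proteins, and the homeodomain core TAATTA. Capitals appear only in DDC, where the NBRE lies on the opposite strand and begins 88 bases before the outermost of 4 annotated starts. Which start is in use in this tissue was not tested. This octamer was in 0.837% of the 12784 promoter windows of tested genes, and in 1 of the 30 windows of the genes called higher below, that of DDC. TGACGTCA was in 1.83% of all windows and in 0 of the 30, TAATCC in 7.87% and in 3 of the 30 (FRMPD1, PITX3 and PLA2G2A), and TAATTA in 3.09% and in 2 of the 30 (TMEM255A and UBASH3B). The SLC18A2 window ends in tgacgtc, the start of TGACGTCA, and the base after the window was not read. A match is a match of letters in this window and nothing more.

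SLC6A3 covered a very wide range. The lowest animal had 4.90 CPM, the median of the 28 was 73.8 CPM and the highest had 906 CPM, a 185-fold span. In the DAT-rich animals SLC6A3 was 239, 357.6, 444, 506, 512, 516, 688, 861 and 906 CPM, and in the DAT-poor animals it was 4.90, 9.09, 9.80, 9.97, 10.1, 10.2, 14.3, 18.6 and 22.0 CPM. The animals between them ran without a wide step from 35.1 to 219 CPM. Just inside and just outside the upper limit stood control 8 at 239 CPM and control 4 at 219 CPM, and at the lower limit drinker 16 at 22.0 CPM and drinker 7 at 35.1 CPM. These numbers chose the classes and carry no test. Even the lowest library held 80 counts of SLC6A3, so all 28 animals had detectable DAT mRNA.

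**Figure D1:**
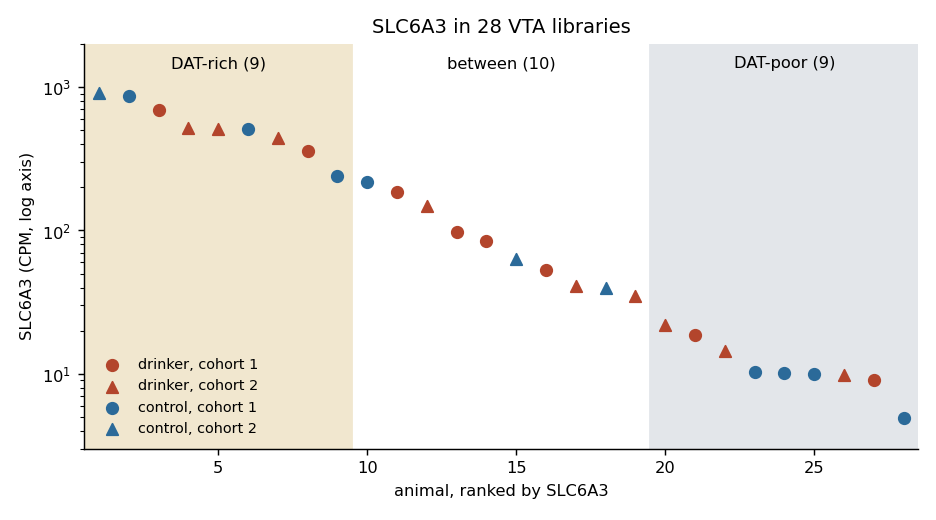
SLC6A3 in CPM (log axis) for each of 28 animals in order of rank, with drinkers in red, controls in blue, cohort 1 as circles and cohort 2 as triangles. Shaded bands mark the 9 DAT-rich and 9 DAT-poor animals, and both groups and both cohorts are seen in each band.

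Drinkers and controls were mixed alike in the classes. The DAT-rich class held 5 drinkers and 4 controls and the DAT-poor class held 5 drinkers and 4 controls (Fisher's exact test, two-sided, p = 1). In each class the drinkers were 3 Very Heavy, 1 Heavy and 1 Binge animal, while the single Low drinker lay between the classes. Cohort 1 supplied 5 of the DAT-rich and 6 of the DAT-poor animals (Fisher's exact test, two-sided, p = 1). Over all 28 animals, the mean SLC6A3 level of the drinkers was 6.33 ± 2.14 log2 CPM (SD, n = 17) and that of the controls 6.17 ± 2.82 log2 CPM (SD, n = 11), a difference of 0.17 (permutation test with 100000 resamples, two-sided, p = 0.863). The spread within each group was far wider than that difference. In cohort 1 the difference was 0.61 (exact permutation test, p = 0.636, n = 8 and 8) and in cohort 2 it was -0.81 (exact permutation test, p = 0.627, n = 9 and 3), so its sign was not shared by the cohorts.

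Across all genes, 30 were higher in DAT-rich animals at an adjusted p under 0.05 (edgeR quasi-likelihood test with Benjamini-Hochberg adjustment), which is 0.226% of the 13251 genes tested. No gene was lower (0%), against 271 lower and 437 higher at an unadjusted p under 0.05. DESeq2 called 79 higher and 11 lower, and limma-voom 19 higher and 0 lower. The median log2 difference over all genes was 0.01. Of the 30 genes, 18 had every DAT-rich animal above every DAT-poor animal, a separation seen in 20 of all genes tested (0.151%). The opposite separation, with every DAT-poor animal above every DAT-rich animal, was seen in none (0%). Because the classes were formed on SLC6A3 in these same libraries, the adjusted p-values describe how genes ran together with SLC6A3.

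The libraries themselves differed less than their dopamine genes. Total counts ran from 19992400 to 27338700 in DAT-rich and from 12304000 to 27283300 in DAT-poor animals (exact permutation test on the means, two-sided, p = 0.19, n = 9 and 9), and 4 DAT-poor libraries were shallower than any DAT-rich library. Restricted to the 9 DAT-rich and 5 DAT-poor animals of like depth, an alternative added after the data were seen, the fit called 12 genes, all among the 30, and 4 of the 5 dopamine markers were among them. Mitochondrial transcripts took 36.4% to 60.6% of counts in DAT-rich and 40.3% to 59.6% in DAT-poor animals (exact permutation test, p = 0.781, n = 9 and 9).

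Of the 5 markers that define dopamine neurons here, 4 rose with the class. TH, the rate-limiting enzyme of dopamine synthesis, was at 231 CPM in the lowest, 499.6 CPM in the median and 840.4 CPM in the highest DAT-rich animal, and at 4.78, 13.4 and 35.9 CPM in the DAT-poor animals. The classes did not overlap, and the highest DAT-poor animal stood well below the lowest DAT-rich animal. TH was higher by 5.01 ± 0.41 (log2, SE), a 32.2-fold difference (edgeR adjusted p = 6.77e-07).

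SLC18A2, which fills synaptic vesicles with dopamine, ranged from 40.3 to 154 CPM in DAT-rich animals (median 96.3) and from 0.163 to 4.87 CPM in DAT-poor animals (median 2.19). DDC, which turns L-DOPA into dopamine, ranged from 58.4 to 171 CPM (median 115) and from 0.368 to 7.60 CPM (median 3.17). Both genes left a gap between the classes. The log2 differences were 5.27 ± 0.42 (SE) for SLC18A2 and 5.08 ± 0.36 (SE) for DDC, with edgeR adjusted p = 6.5e-07 and 1.28e-07. EN1, a homeodomain factor needed for the survival of midbrain dopamine neurons, was at 5.51 to 23.3 CPM against 0 to 2.37 CPM, again without overlap, and differed by 4.07 ± 0.64 (log2, SE, edgeR adjusted p = 0.00437).

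NR4A2, a nuclear receptor that drives dopamine neuron identity, was the exception. Its listed transcript was at most 3.83 CPM in the DAT-rich and 0.517 CPM in the DAT-poor animals, with medians of 0.182 and 0.251 CPM, and the classes overlapped. The log2 difference was 1.35 ± 0.92 (SE, edgeR adjusted p = 1), and without control 3, the highest animal, the DAT-rich animals reached no more than 0.532 CPM. At this level a difference in NR4A2 was not detectable. TH, SLC18A2, DDC and EN1 thus ran with the class labels, and NR4A2 was too low to judge them.

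**Figure D2:**
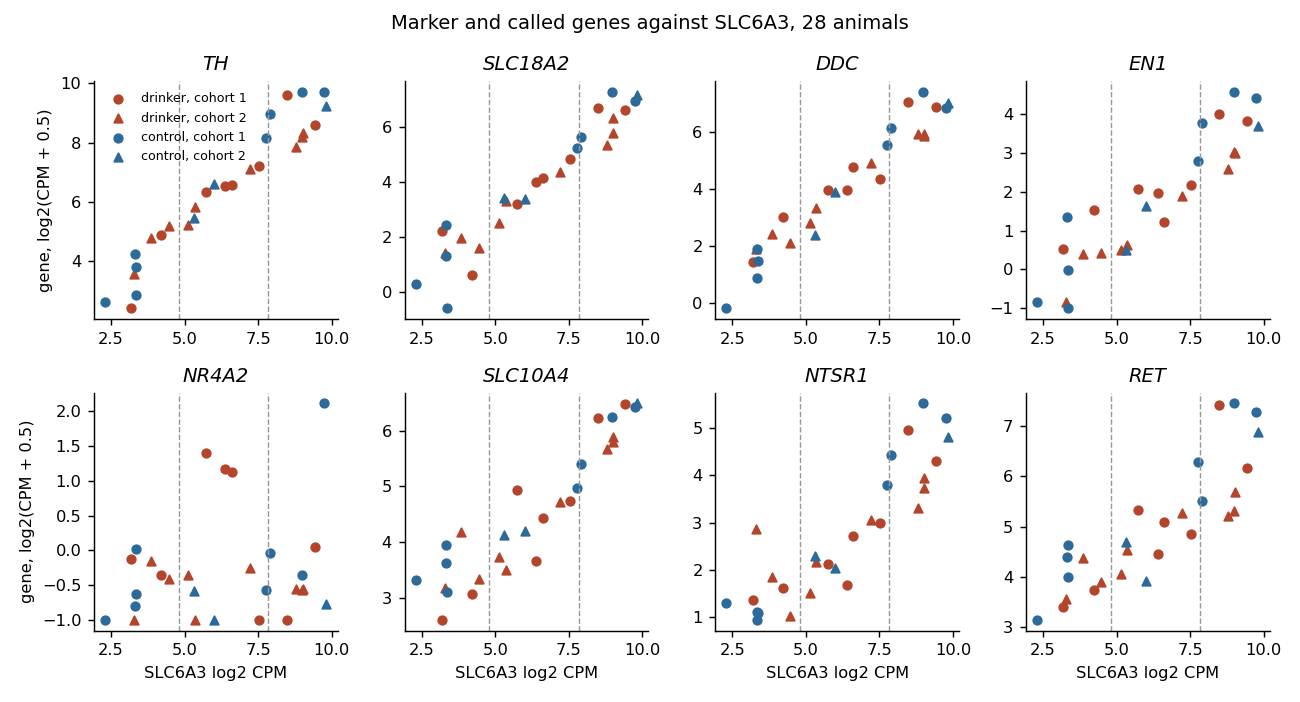
Level of 8 genes as log2(CPM + 0.5) against SLC6A3 log2 CPM in 28 animals, with drinkers in red, controls in blue, cohorts as circles (1) and triangles (2), and dashed lines at the class limits. TH, SLC18A2, DDC, EN1, SLC10A4, NTSR1 and RET are higher to the right of the upper line than to the left of the lower one, with RET spread from 36.7 to 174 CPM within the DAT-rich class, and NR4A2 stays near its floor in most animals.

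The 4 markers were also higher when each cohort or each drinking group was fitted alone. TH differed by 4.33 ± 0.54 (log2, SE) in drinkers and 5.89 ± 0.38 in controls, and by 5.72 ± 0.43 in cohort 1 and 3.89 ± 0.52 in cohort 2, the last with an edgeR adjusted p of 0.102. SLC18A2 and DDC were called in all 4 of these smaller fits. EN1 was called in none of the 4, with differences between 3.43 and 4.84. Outside the markers the difference was larger in cohort 1 than in cohort 2 for several called genes, at 3.32 ± 0.31 against 1.20 ± 0.20 for IGFBP4, 4.04 ± 0.43 against 1.69 ± 0.39 for CCN3, 2.11 ± 0.31 against 0.61 ± 0.39 for OPRK1 and 2.20 ± 0.38 against 0.59 ± 0.27 for KLHL1 (log2, SE). An interaction of class and cohort over the 18 animals, added after the data were seen, passed for no gene (0 of 13251, 0%), against 659 at an unadjusted p under 0.05 in edgeR. For these 4 genes the edgeR adjusted p was 0.208, 0.759, 0.854 and 0.854. Of the 30 called genes 25 had a smaller difference in cohort 2, where 50.9% of all genes tested did. The 30 genes were picked for running with SLC6A3 in these animals, so this count carries no test. The SLC6A3 gap between the classes was not matched between the cohorts. In the smaller fits 17 genes were called higher in cohort 1, 6 in cohort 2, 4 among drinkers and 5 among controls.

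Whether the size of the class difference depended on drinking was asked with an interaction term over the 18 animals. No gene passed (0 of 13251, 0%), against 557 at an unadjusted p under 0.05 in edgeR. The difference in drinkers minus that in controls was -1.55 ± 0.65 for TH, -0.89 ± 0.76 for SLC18A2, -1.58 ± 0.55 for DDC, -1.42 ± 1.20 for EN1 and -1.58 ± 0.55 for NTSR1 (log2, SE), each with an edgeR adjusted p of 1. Of the 30 called genes 21 had a smaller difference in drinkers, where 50.7% of all genes tested did. SLC6A3 itself was at 357.6 to 688 CPM in DAT-rich and 9.09 to 22.0 CPM in DAT-poor drinkers. In controls it was at 239 to 906 and 4.90 to 10.2 CPM. The ranking thus did not set a like gap in both groups, and its part in these 21 genes was not tested. For the interaction DESeq2 called 78, of which 74 were listed at 0 in 9 or more of the 18 animals. The lowest p belonged to ITSN2, an endocytic scaffold, at 3.31 to 7.29 CPM in DAT-rich controls, 12.5 to 20.7 CPM in DAT-poor controls, 11.2 to 13.7 CPM in DAT-rich drinkers and 10.3 to 17.6 CPM in DAT-poor drinkers (edgeR adjusted p = 0.353). The next were CTSF, a lysosomal protease, IFI6, an interferon-induced gene, BUB3, a spindle checkpoint protein, and RCSD1, each with an edgeR adjusted p of 1.

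Of 11 genes tested for synthesis, storage and breakdown, 3 rose (TH, DDC and SLC18A2) and none fell. GCH1, which supplies the tetrahydrobiopterin cofactor of TH, was at 1.06 to 5.23 CPM in DAT-rich and 0.209 to 2.03 CPM in DAT-poor animals, a log2 difference of 1.63 ± 0.39 (SE) that did not pass (edgeR adjusted p = 0.161). The other cofactor enzymes PTS, SPR, QDPR and PCBD1 had log2 differences from -0.19 to 0.04. MAOA and MAOB, which break dopamine down, had log2 differences of 0.21 ± 0.13 and 2.23 ± 1.38 (SE), and MAOB was listed at 0 in 8 DAT-poor and 3 DAT-rich animals.

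Among 11 transcription factors of the dopamine lineage, EN1 and PITX3 rose and none fell, and the list median was 1.35 (log2). PITX3, a homeodomain factor needed for TH expression in the substantia nigra, was at 1.35 to 6.10 CPM in DAT-rich and 0 to 0.803 CPM in DAT-poor animals (log2 difference 3.79 ± 0.69, SE, edgeR adjusted p = 0.0165). LMX1B was at 3.59 to 7.96 CPM against 0 to 2.15 CPM and EN2 at 1.30 to 7.25 CPM against 0 to 3.41 CPM. Their log2 differences of 3.22 ± 0.74 and 2.33 ± 0.64 (SE) did not pass (edgeR adjusted p = 0.123 and 0.296). FOXA2, which acts earlier in the lineage, was alike at 4.13 to 40.9 CPM and 3.53 to 32.2 CPM (log2 difference 0.02 ± 0.40, SE). OTX2, a factor of VTA dopamine neurons, had a log2 difference of -0.49 ± 0.22 (SE, edgeR adjusted p = 0.852).

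Genes enriched in dopamine neurons or in their subtypes followed in part. Of 19 tested, SLC10A4, RET, CHRNB3 and KLHL1 rose, none fell and the list median was 1.37 (log2). SLC10A4, a vesicular carrier of monoamine and cholinergic neurons, had the lowest p of all genes and ran from 42.03 to 89.4 CPM in DAT-rich and from 5.55 to 17.6 CPM in DAT-poor animals. Its log2 difference of 2.76 ± 0.19 (SE, edgeR adjusted p = 1.28e-07) was 6.78-fold.

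RET, the signalling receptor for GDNF, was at 36.7 to 174 CPM against 8.37 to 24.2 CPM, a log2 difference of 2.61 ± 0.31 (SE, edgeR adjusted p = 0.000164). GFRA1, its co-receptor, was at 2.77 to 10.3 CPM against 0 to 2.87 CPM and did not pass (log2 difference 2.18 ± 0.51, SE, edgeR adjusted p = 0.147). CALB1, a calcium buffer of the dorsal tier and VTA, had a log2 difference of 1.80 ± 0.44 (SE, edgeR adjusted p = 0.184). It was 2.96 ± 0.36 in cohort 1 (adjusted p = 0.00527) and -0.11 ± 0.39 in cohort 2. KLHL1, an actin-binding protein, was at 19.1 to 67.8 CPM against 4.77 to 23.5 CPM, with overlap (log2 difference 1.59 ± 0.31, SE, edgeR adjusted p = 0.0312). Without any one of 9 of the 18 animals its adjusted p rose above 0.05, to 0.0796 at most.

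Dopamine, opioid and neurotensin receptors, some of them found mainly on other cells, were represented by 10 tested genes, of which NTSR1 and OPRK1 rose and none fell (list median 0.52, log2). NTSR1, the high-affinity neurotensin receptor, was at 9.35 to 45.3 CPM in DAT-rich and 1.42 to 6.82 CPM in DAT-poor animals, without overlap (log2 difference 3.28 ± 0.34, SE, edgeR adjusted p = 2.65e-05). NTSR2, which is largely glial, had a log2 difference of 0.00 ± 0.14 (SE). OPRK1, the kappa opioid receptor, was at 3.85 to 23.6 CPM against 1.41 to 7.21 CPM, with 7 of 9 DAT-rich animals above the highest DAT-poor animal (log2 difference 1.56 ± 0.29, SE, edgeR adjusted p = 0.0206). Without control 5, control 7, drinker 5 or drinker 11 its adjusted p was 0.0509 to 0.058.

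DRD2, the dopamine autoreceptor, was at 30.9 to 88.9 CPM in DAT-rich and 0 to 18.98 CPM in DAT-poor animals and did not overlap either. Its log2 difference of 2.90 ± 0.63 (SE) had an edgeR adjusted p of 0.0811, and 2 DAT-poor animals were listed at 0. DRD2 was also listed at 0 in 3 animals between the classes, among them drinker 8 with 184 CPM of SLC6A3 and 148 CPM of TH. Since one transcript per gene was deposited, a change in DRD2 and a shift between its transcripts cannot be told apart. It passed without control 2, drinker 5 or drinker 16 (adjusted p = 0.0297 to 0.045) and in DESeq2 (adjusted p = 0.0188). The other dopamine receptors DRD1, DRD3, DRD4 and DRD5 had log2 differences from -0.54 to 1.43, none of which passed. None of 13 neuropeptide genes passed, and 2 of the 13 had positive differences (list median -0.52, log2), where 51.1% of all genes tested did. In the 10 animals between the classes 7 of the 12 fitted had a positive slope on SLC6A3, where 46.5% of all genes fitted did. PDYN, the precursor of the kappa receptor's ligand dynorphin, had the highest log2 difference of the list at 0.95 ± 0.41 (SE, edgeR adjusted p = 0.852). The enkephalin precursor PENK, NPY and CARTPT had log2 differences of -0.76 ± 0.37, -1.04 ± 0.50 and -1.56 ± 0.84 (SE).

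Nicotinic receptor subunits gave 1 call in 8 tested, with a list median of 0.91 (log2), also with CHRNB2, listed at 0 in every DAT-poor animal, set at its bound of 3 counts over the class. CHRNB3, a subunit concentrated in catecholamine neurons, was at 2.41 to 13.96 CPM against 0 to 1.27 CPM (log2 difference 3.91 ± 0.58, SE, edgeR adjusted p = 0.00214). CHRNA6, which assembles with it, was at 7.32 to 28.54 CPM against 1.16 to 9.79 CPM, with a log2 difference of 1.94 ± 0.50 (SE, edgeR adjusted p = 0.236). CHRNA7 was alike at 4.38 to 10.8 CPM and 5.27 to 11.6 CPM. Among 12 pacemaker and potassium channel genes none passed (list median -0.18). KCNJ6, the GIRK2 channel of dopamine neurons, had a log2 difference of 1.09 ± 0.29 (SE, edgeR adjusted p = 0.245), and 0.0248 without drinker 9.

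**Figure D3:**
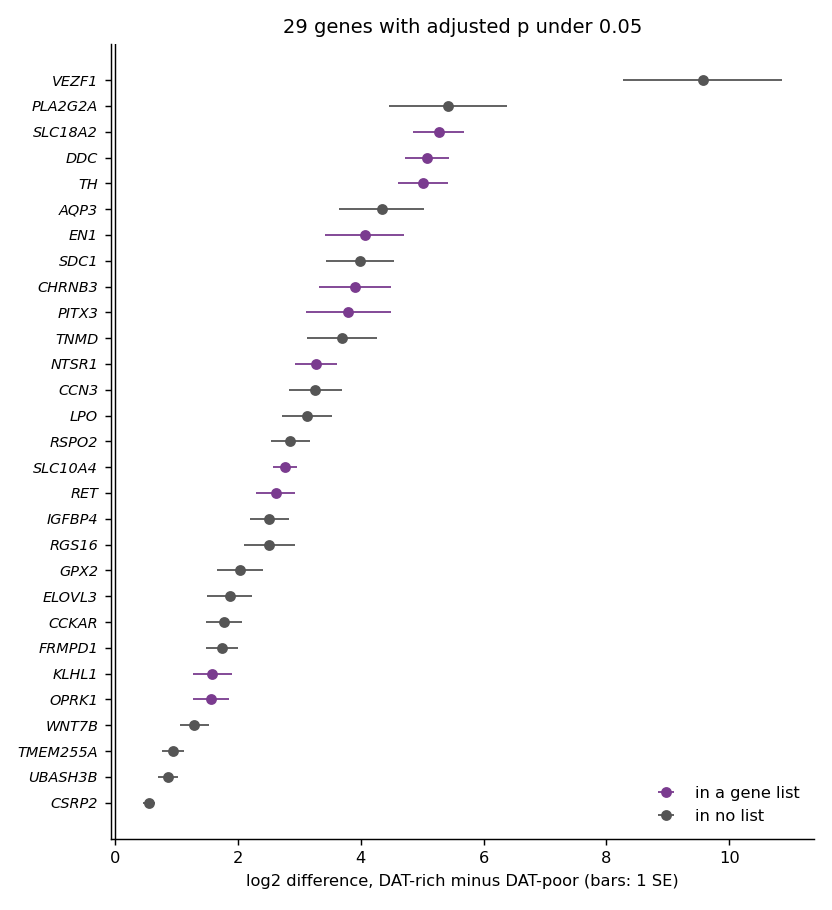
Log2 difference between DAT-rich and DAT-poor animals for 29 of the 30 genes called, ordered by size, with bars of 1 SE and purple for genes that belong to a gene list. All lie to the right of 0, from CSRP2 at 0.56 upward, and the value of VEZF1 rests on a DAT-poor class listed at 0 throughout.

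Beyond these lists, 18 called genes belonged to no list. RSPO2, a secreted enhancer of Wnt signalling, was at 11.2 to 49.2 CPM in DAT-rich and 1.05 to 6.50 CPM in DAT-poor animals (log2 difference 2.86 ± 0.32, SE, edgeR adjusted p = 7.85e-05). IGFBP4, which binds insulin-like growth factors, was at 20.1 to 86.6 CPM against 2.21 to 13.5 CPM (2.52 ± 0.32, edgeR adjusted p = 0.00039). CCN3, a matricellular protein, was at 7.13 to 78.0 CPM against 1.16 to 4.75 CPM (3.26 ± 0.43, edgeR adjusted p = 0.000554). All 3 separated the classes without overlap.

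SDC1, the cell-surface proteoglycan syndecan-1, was at 2.23 to 20.8 CPM against 0 to 0.842 CPM, and TNMD, a type II membrane protein known from tendon, at 2.95 to 21.0 CPM against 0 to 1.95 CPM. Neither overlapped, and their log2 differences were 3.99 ± 0.55 and 3.70 ± 0.57 (SE). LPO, a secreted peroxidase, and AQP3, a water and glycerol channel, each had 8 of 9 DAT-rich animals above the highest DAT-poor animal, with log2 differences of 3.13 ± 0.41 and 4.34 ± 0.69 (SE). FRMPD1, a scaffold protein, was at 12.0 to 43.98 CPM against 4.11 to 9.35 CPM.

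CCKAR, a receptor for the gut and brain peptide cholecystokinin, was at 6.18 to 23.9 CPM against 2.06 to 7.74 CPM, with 8 of 9 DAT-rich animals above the highest DAT-poor animal (log2 difference 1.77 ± 0.29, SE, edgeR adjusted p = 0.00621). RGS16, which shortens G-protein signals, had 6 of 9 above (2.51 ± 0.42, edgeR adjusted p = 0.00653). The 8 further genes were PLA2G2A, WNT7B, GPX2, UBASH3B, CSRP2, TMEM255A, ELOVL3 and VEZF1, named after their values were seen so that the genes outside the lists are accounted for. UBASH3B, CSRP2 and TMEM255A had the smallest log2 differences of the 30, at 0.86 ± 0.16, 0.56 ± 0.10 and 0.95 ± 0.18 (SE). ELOVL3 lost its call without any one of 9 animals (adjusted p up to 0.0772), and TMEM255A without control 2 (adjusted p = 0.0516).

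VEZF1 was listed at 0 in all 9 DAT-poor animals, in 1 DAT-rich animal and in 18 of the 28. Against a floor of 3 counts over the DAT-poor class its pooled level of 4.496 CPM in the DAT-rich class was at least 269-fold higher. One transcript per gene was deposited and many genes are listed at 0 in some animals and well above 0 in others, so for VEZF1 a change in the gene and a shift between its transcripts cannot be told apart. Every other called gene had counts in all 9 DAT-rich animals. PLA2G2A was listed at 0 in 7 of the 9 DAT-poor animals and reached 0.122 CPM there at most. VEZF1 and PLA2G2A thus met the count filter through the DAT-rich class alone, which limits what their calls and separation show.

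Markers of neighbouring cells gave no call, where 0.226% of all genes tested were called higher. Of 7 GABA neuron genes tested none passed. All 7 had negative log2 differences (list median -0.20), where 51.1% of all genes tested had positive ones. In the 10 animals between the classes 6 of the 7 had a positive slope on SLC6A3, where 46.5% of all genes fitted did. GAD1, which makes GABA, was at 51.6 to 161 CPM in DAT-rich and 95.5 to 215 CPM in DAT-poor animals, with overlap (log2 difference -0.67 ± 0.23, SE, edgeR adjusted p = 0.487). SLC17A6, the vesicular glutamate transporter of midbrain, was at 30.2 to 181 CPM against 107 to 221 CPM (-0.50 ± 0.26, edgeR adjusted p = 0.973), and none of the 6 glutamate neuron genes passed (list median 0.11). None of 8 pan-neuronal genes passed (list median -0.05), and none of the serotonin, cholinergic and noradrenergic, hypothalamic and mammillary, or immediate early genes did (2, 3, 4 and 6 genes tested, medians 0.62, 0.49, 0.21 and 0.00). RBFOX3, a pan-neuronal gene, was listed at 0 in every animal but drinker 1, so the lists depend on the transcripts deposited. TPH2, of serotonin neurons, was at 0.276 to 7.56 CPM against 0 to 0.930 CPM (1.74 ± 0.73, edgeR adjusted p = 0.784). The highest value was that of drinker 4, the other DAT-rich animals reached 1.50 CPM at most, and without drinker 4 the log2 difference was 0.79 ± 0.62 (SE).

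The glial, vascular and ependymal lists gave no call either. Oligodendrocyte genes summed to 11624 to 22702 CPM in DAT-rich and 13369 to 24902 CPM in DAT-poor animals, and none of 11 passed (list median -0.12, log2). Medians were 0.07 for oligodendrocyte precursors (4 tested), 0.09 for astrocytes (8 tested), -0.15 for endothelial and mural cells (8 tested) and 0.00 for the 1 blood gene tested, with no call. One transcript per gene was deposited, and those of the astrocyte gene SLC1A2 and the mural gene RGS5 were at 0 in all 28 animals. AQP4 of astrocytes reached 3.84 CPM at most. The lists thus describe the deposited transcripts, and cell content was not measured. Microglial genes had positive differences in 8 of 9 (list median 0.29), 3 of them at an unadjusted p under 0.05 in edgeR, led by AIF1 at 6.22 to 10.4 CPM against 3.38 to 7.86 CPM (0.60 ± 0.16, edgeR adjusted p = 0.295). The 4 ependymal and choroid plexus genes also had positive differences (list median 1.25), 2 of them at an unadjusted p under 0.05 in edgeR. Over all 13251 genes tested 51.1% had positive differences, 437 of them at an unadjusted p under 0.05. In the 10 animals between the classes 6 of the 9 microglial and 1 of the 4 ependymal genes had a positive slope on SLC6A3. Over all genes fitted there 46.5% did. TTR, which choroid plexus makes in large amounts, was at 21.9 to 371 CPM against 2.79 to 93.1 CPM, with overlap (1.75 ± 0.70, edgeR adjusted p = 0.719). The part of these cells in the called genes was not tested. With the summed oligodendrocyte level as a covariate 26 of the 30 genes were called and no others.

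**Figure D4:**
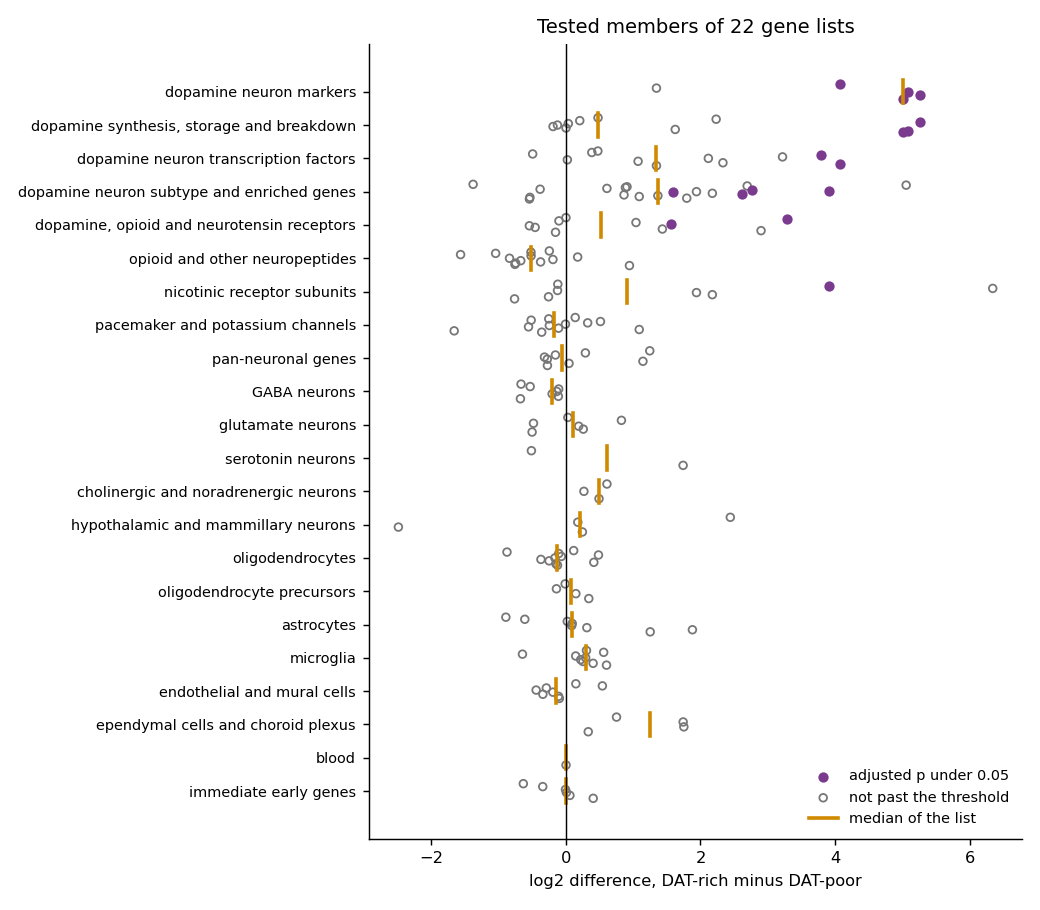
Log2 difference between DAT-rich and DAT-poor animals for each tested member of 22 gene lists, filled where the adjusted p was under 0.05, with a bar at the list median. Filled points occur in the dopamine, receptor and nicotinic lists and in none of the lists of other cell types.

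The 10 animals between the classes took no part in the class contrast, and there the slope of each gene on SLC6A3 was fitted, as the log2 change in a gene for each doubling of SLC6A3. No gene passed over the 12496 fitted (0 positive calls, 0%), with 297 at an unadjusted p under 0.05 in either direction in edgeR. With library size alone as the scaling, 3 positive slopes passed. Of the 30 called genes 28 could be fitted, and 25 of these had a positive slope, 11 with an unadjusted p under 0.05. Over all genes fitted 46.5% had a positive slope. SLC18A2 had the lowest p of all genes at a slope of 0.85 ± 0.11 (SE, edgeR adjusted p = 0.0659) and TH followed closely at 0.86 ± 0.12 (SE, edgeR adjusted p = 0.0659).

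DDC had a slope of 0.93 ± 0.19 (SE), EN1 of 0.79 ± 0.26, NTSR1 of 0.66 ± 0.18, RET of 0.51 ± 0.16 and SLC10A4 of 0.38 ± 0.15. In CPM, TH ran from 36.5 to 282, SLC18A2 from 5.14 to 37.2 and DDC from 4.67 to 46.1 in these animals, which filled the gap between the classes. OPRK1, KLHL1, UBASH3B and CSRP2 had slopes of 0.01 ± 0.19, -0.01 ± 0.15, -0.03 ± 0.19 and -0.09 ± 0.10 (SE), and no gradient was detectable for them in these 10 animals. The same held for others, among them IGFBP4 (0.06 ± 0.11), TMEM255A (0.06 ± 0.11), CCKAR (0.08 ± 0.26), SDC1 (0.19 ± 0.51) and PITX3 (0.20 ± 0.39).

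**Figure D5:**
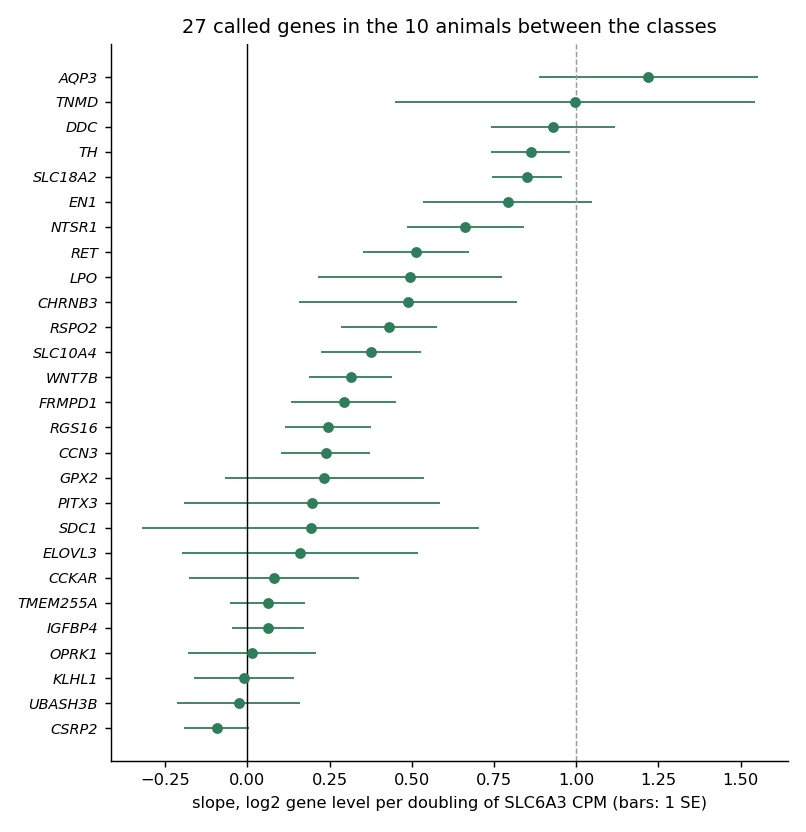
Slope of log2 gene level per doubling of SLC6A3 CPM in the 10 animals between the classes for 27 of the 30 called genes, with bars of 1 SE and a dashed line at a slope of 1, where a gene would change in proportion to SLC6A3. SLC18A2, TH and DDC lie near 0.9 with short bars, and CSRP2 is the lowest at -0.09.

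Over all 28 animals, the slope on SLC6A3 was positive and called for 54 genes (0.392% of 13768) and negative and called for 15 (0.109%). Of the 30 genes 29 were among these 54, CSRP2 being the exception. All 15 negative genes were listed at 0 in 21 to 25 of the 28 animals. Of 25 positive genes that the class contrast had not called, 9 were likewise listed at 0 in 20 or more animals and 16 at 0 in 3 or fewer. Among the latter were KCNJ6 with a slope of 0.21 ± 0.04, CALB1 with 0.32 ± 0.07 and LMX1B with 0.56 ± 0.13 (SE). The full range adds to the 18 animals the 10 between them, and it shares its animals with the class contrast.

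The 10 genes most like SLC6A3, by Pearson's r of log2(CPM + 0.5) over 28 animals among genes with a median of at least 1 CPM, were DDC, TH, SLC18A2, SLC10A4, EN1, RSPO2, NTSR1, CHRNB3, LPO and TNMD. Their r fell from 0.970 for DDC to 0.872 for TNMD, and Spearman's rho from 0.963 for TH to 0.847 for LPO. Without control 1 and control 10, the animals with the most extreme SLC6A3, r was 0.965 for DDC and 0.853 for TNMD. These genes were picked for their r, so the values are a description and carry no p. Their slopes on SLC6A3 were graded. DDC, TH and SLC18A2 had slopes of 0.94 ± 0.05, 0.94 ± 0.06 and 0.92 ± 0.06 (SE), EN1, CHRNB3 and TNMD followed at 0.76 ± 0.09, 0.72 ± 0.09 and 0.71 ± 0.10, and NTSR1, LPO, RSPO2 and SLC10A4 had 0.56 ± 0.06, 0.55 ± 0.06, 0.49 ± 0.04 and 0.47 ± 0.04.

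The dopamine genes did not keep a single ratio to SLC6A3, however. The ratio of TH CPM to SLC6A3 CPM, used to compare animals and not as a ratio of molecules, was 0.520 to 0.966 in 6 of the DAT-rich animals and 1.66, 2.09 and 2.19 in the other 3 (control 5, control 8 and drinker 4, all of cohort 1). In the animals between the classes it was 0.804 to 1.51 and in DAT-poor animals 0.526 to 1.88. Control 3 and drinker 11, the other DAT-rich animals of cohort 1, had 0.966 and 0.557. SLC6A3 divides this ratio and also set the classes, so differences of the ratio between classes carry no test. The ratio of DDC to SLC6A3 was 0.296 to 0.377 in control 5, control 8 and drinker 4 and 0.114 to 0.174 in the other DAT-rich animals. Over all 28 animals drinkers had a log2 ratio of TH to SLC6A3 of 0.01 ± 0.67 (SD, n = 17) and controls one of 0.28 ± 0.55 (SD, n = 11; permutation test, two-sided, p = 0.274, adjusted over 3 ratios p = 0.628). The ratios of SLC18A2 and DDC differed between drinkers and controls by -0.01 and 0.20 (log2, permutation tests, p = 0.976 and 0.419). These 3 ratios were added after the data were seen. In cohort 1 the TH ratio differed by -0.33 and in cohort 2 by -0.06 (log2, exact permutation tests, p = 0.308 and 0.9).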

How the data were processed

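Bulk RNA-seq of VTA punches from 28 animals was analysed. The authors trimmed paired reads with Trim Galore 0.6.7 and quantified them with Salmon 1.9.0 against Mmul_10, and deposited estimated counts per transcript, one transcript per gene symbol, in a table of 16886 rows. The authors state that counts were normalized with DESeq2 1.36.0 and that pairwise comparisons were run in Biojupies. The deposited values were not normalized. The submitters' processing notes and the study's methods give these versions. The cohort of each animal came from the study and its group from the labels.

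Estimated counts were rounded for tests, and 1 row without a symbol (1.16e-05% of counts) was left out. CPM was taken over all rows. Totals ran from 12303977 to 27338712 counts, and counting error weighs most on genes of few counts. No pair of libraries had more than 1.04% identical values among genes with a count. Genes with at least 5 counts in at least 3 of the animals fitted were tested with edgeR 4.0.16 (quasi-likelihood, TMM, Benjamini-Hochberg, threshold 0.05). limma 3.58.1 (voom) and DESeq2 1.42.0 served as alternatives, under R 4.3.3. Class differences and slopes are log2 values of this model with the standard error (SE) derived from it. Exact and permutation tests used scipy 1.17.1. The scripts were tested on simulated data. Members and gene lists were chosen with earlier results of these data known. Genes named were SLC6A3, the 5 markers, list members of lowest p with some that did not pass, the 10 genes outside the lists with the lowest p and a median of at least 1 CPM, the 5 interaction genes of lowest p and the 10 genes most like SLC6A3. One called gene is not reported here. No gene was lower, so none was named for that. Each animal gave 1 punch and 1 library, so p-values measure the spread between libraries. In that spread the animal, the placement of the punch and the preparation of the library cannot be told apart. Promoter sequences and positions came from the RefSeq annotation of Mmul_10.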

Additional observations from a re-analysis of the deposited data

Results flagged for a closer look

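A value was singled out where, in a class of 9 animals, the gap between the highest or lowest animal and its nearest neighbour exceeded Dixon's limit for 9 values, as a share of the class range. Chance alone gives this in about 1 of 20 groups where values are normal and groups independent. The groups here share their animals and CPM need not be normal, so that rate is only a guide. In 7 of 79 groups examined the limit was exceeded. Drinker 13, a DAT-poor animal of cohort 2, was the highest of its class in 3 of them. It had 6.82 CPM of NTSR1 against 3.10 in the next animal, 1.64 CPM of LPO against 0.907 and 36.8 CPM of CALB1 against 18.6. Its SLC6A3 level was 9.80 CPM. Without drinker 13, CALB1 passed the class test (edgeR adjusted p = 0.0276).

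In the DAT-rich class, drinker 11 had 20.8 CPM of SDC1 against 9.91 in the next animal, and control 3 had 3.83 CPM of NR4A2 against 0.532. In the DAT-poor class, drinker 9 had 13.5 CPM of KCNJ6 against 7.16 and control 6 had 3.41 CPM of EN2 against 1.40.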

How the results depend on the processing

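The count of 30 genes higher and 0 lower was within 1.5 times under DESeq2 size factors, library size alone, scaling without mitochondrial transcripts, no count filter, both other rankings of SLC6A3 (which gave the same classes), 7 against 7 and the 4 covariates, with 22 to 32 higher. Leaving out 1 animal at a time gave 27 to 35 higher and 0 lower. DESeq2 gave 79 higher and 11 lower, limma-voom 19 higher and a minimum of 10 counts in every animal 18 higher, where the stricter filter removed 13 of the 30 genes and left 8077 tested. 14 against 14 gave 1 lower, and the slope over 28 animals 54 higher and 15 lower. Cohort 1 alone gave 17 higher and 1 lower, cohort 2 alone 6 and 1, drinkers alone 4 and 1, controls alone 5 higher, and animals of like depth 12 higher, all with fewer animals. In each setting every one of the 30 genes that could be fitted kept a positive difference. TH, SLC18A2, DDC and EN1 were called in every leave-one-out fit. The direction turned for CALB1 in cohort 2 alone (-0.11) and for NR4A2 in drinkers alone (-0.17), neither of them called. Slopes in the 10 animals between gave 3 positive calls with library size alone, and the interaction 78 calls in DESeq2. The SLC6A3 difference between drinkers and controls was -70.6 on linear CPM (p = 0.509) and -0.81 log2 CPM in cohort 2 (p = 0.627), where the main value was 0.17, and no setting passed. In these cases the cause was not tested. The mix of drinkers and controls gave Fisher's exact p = 1 in all 5 settings. No paired analysis was possible because the labels give no number shared by drinkers and controls. KLHL1 lost its call without control 1, 3, 5, 7 or 10 or drinker 4, 5, 9 or 11 (adjusted p = 0.0544 to 0.0796), and ELOVL3 without control 1, 2, 3, 7 or 10 or drinker 5, 11, 13 or 16 (0.0508 to 0.0772). GFRA1 passed without drinker 9 (0.0121) and LMX1B without drinker 16 (0.047). NR4A2 and CHRNB2 were listed at 0 in 6 and 23 of the 28 animals and reached 3.83 and 1.65 CPM in others, and the part of depth in this was not tested.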
